A study of Mus musculus with 9 samples.

Results

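The G1 cyclins, cyclin F and a set of CDK inhibitors were followed in macrophages exposed to an organotin, as 10 genes of the 18193 measured: Ccnd1, Ccnd2, Ccnd3, Ccne1, Ccne2, Ccnf, Cdkn1a, Cdkn1b, Cdkn2c and Cdkn2d. The genes were chosen by family, with earlier results of the same comparisons in view. The members' tests against saline and between the organotins are therefore descriptions and give no independent evidence about the family. Each gene was read from the probe set that names only it and had the highest mean signal over all 9 arrays. The 10 genes have 24 such probe sets in all, and the other 14 served as a check.

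D-type cyclins bind CDK4 and CDK6, and E-type cyclins bind CDK2, to phosphorylate the retinoblastoma proteins and free E2F factors, which switch on the genes of S phase. Inhibitors of the INK4 class, which include the products of Cdkn2c (p18) and Cdkn2d (p19), bind CDK4 and CDK6, while those of the CIP/KIP class, which include the products of Cdkn1a (p21) and Cdkn1b (p27), bind cyclin-CDK complexes more broadly. Cyclin F binds no CDK and is instead the substrate-binding subunit of an SCF ubiquitin ligase that marks cell cycle proteins for destruction in S, G2 and M phase. Macrophages from marrow cultures divide in response to the growth factor CSF1, and LPS is known to hold such cells in G1.

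The cells were bone marrow derived macrophages of C57BL6 mice aged 6 to 12 weeks, used on day 6 in vitro, 1 day after medium conditioned by L929 cells (10%, the source of CSF1) had been withdrawn. All groups were primed for 3 h with 33 ng/mL LPS, a bacterial cell wall component that activates inflammatory genes, so no group shows the unprimed state. After priming, 3 cultures were given TMT OH (trimethyltin hydroxide, 1.25 µM), 3 were given TET Br (triethyltin bromide, 10 µM) and 3 were given sterile saline, each for 6 h. The series was designed to set each organotin against saline during activation of the NLRP3 inflammasome. TMT carries methyl groups on tin and TET ethyl groups, and because their doses differ, compound and dose cannot be told apart in any difference between them.

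RNA was read on Affymetrix mouse genome expression arrays, 1 per culture, and values are log2 signals (RMA). All 12 macrophage markers lay above the median gene over the 9 arrays. Their summed linear signal was 91110 to 106365 under TMT, 80602 to 89285 under TET and 98601 to 101808 in saline, so TET lay below both other groups. Of the 12, 3 rose and 3 fell under TMT, and 1 rose and 5 fell under TET. Among the other marrow lists, the 8 measured neutrophil genes summed to 2496 to 3483 under TMT, 2002 to 2210 under TET and 3458 to 4072 in saline. Of these 8, 0 rose and 4 fell under TMT, and 1 rose and 4 fell under TET. The 6 fibroblast genes summed to 1441 to 1923 under TMT, 838 to 1067 under TET and 1237 to 1365 in saline. Gene by gene, 1 of the 6 rose and 0 fell under TMT, and 3 rose and 1 fell under TET. The lower TET sum is therefore not a fall of most genes of that list. Summed T cell, B cell, erythroid, mast cell and dendritic cell markers were low, each at or under 415 on every array, but the TET arrays of 3 of these lists lay above all others. T cell sums were 248 to 258 under TMT, 317 to 376 under TET and 279 to 287 in saline, and 3 of 5 genes rose with TET against saline. B cell sums were 154 to 171 under TMT, 214 to 236 under TET and 168 to 202 in saline, with 3 of 4 genes risen under TET. Erythroid sums were 151 to 158 under TMT, 174 to 195 under TET and 158 to 171 in saline, with 2 of 4 risen. The interquartile range of signal was 3.83 ± 0.04 under TMT, 3.51 ± 0.05 under TET and 3.86 ± 0.03 in saline (SD, n = 3 arrays each). What these differences contribute to the results was not tested. In bulk RNA, fewer cells of a kind and less RNA per cell cannot be told apart. The 3 arrays per group limit the precision, and p-values measure only the spread between these cultures, since no source used here says that they came from separate mice. Since exact permutation of 3 arrays against 3 allows no p under 0.1, the test used was limma's moderated test, adjusted over 18193 genes, with a gene called at an adjusted p under 0.05.

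Under TMT, 5 of the 10 genes rose (Ccnd1, Ccnd3, Ccnf, Cdkn1b and Cdkn2d), 3 fell (Ccnd2, Cdkn1a and Cdkn2c) and 2 were not called (Ccne1 and Ccne2). Over all genes, 14.3% rose and 13.4% fell under TMT. Under TET, 3 rose (Ccnd1, Ccnf and Cdkn2c), 4 fell (Ccnd3, Cdkn1a, Cdkn1b and Cdkn2d) and 3 were not called (Ccnd2, Ccne1 and Ccne2), while 27.4% of all genes rose and 23.4% fell. The median log2 change of the 10 genes was 0.17 under TMT and -0.18 under TET, beside 0.01 and 0.09 over all genes. Ccnd3, Cdkn1b and Cdkn2d rose with TMT and fell with TET, and Cdkn2c fell with TMT and rose with TET. Ccnd1 and Ccnf rose, and Cdkn1a fell, with both compounds. Set directly against TMT, TET had 5 genes higher (Ccnd1, Ccnd2, Ccne2, Ccnf and Cdkn2c), 3 lower (Ccnd3, Cdkn1b and Cdkn2d) and 2 not called, where 28.1% of all genes were higher and 23.7% were lower. Both contrasts with saline use the same 3 saline arrays. Without saline replicate 2, only 5 genes were called under TMT: Ccnd3, Ccnf, Cdkn1a, Cdkn1b and Cdkn2c, which were called under TMT and under TET whichever array was left out.

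**Figure D1:**
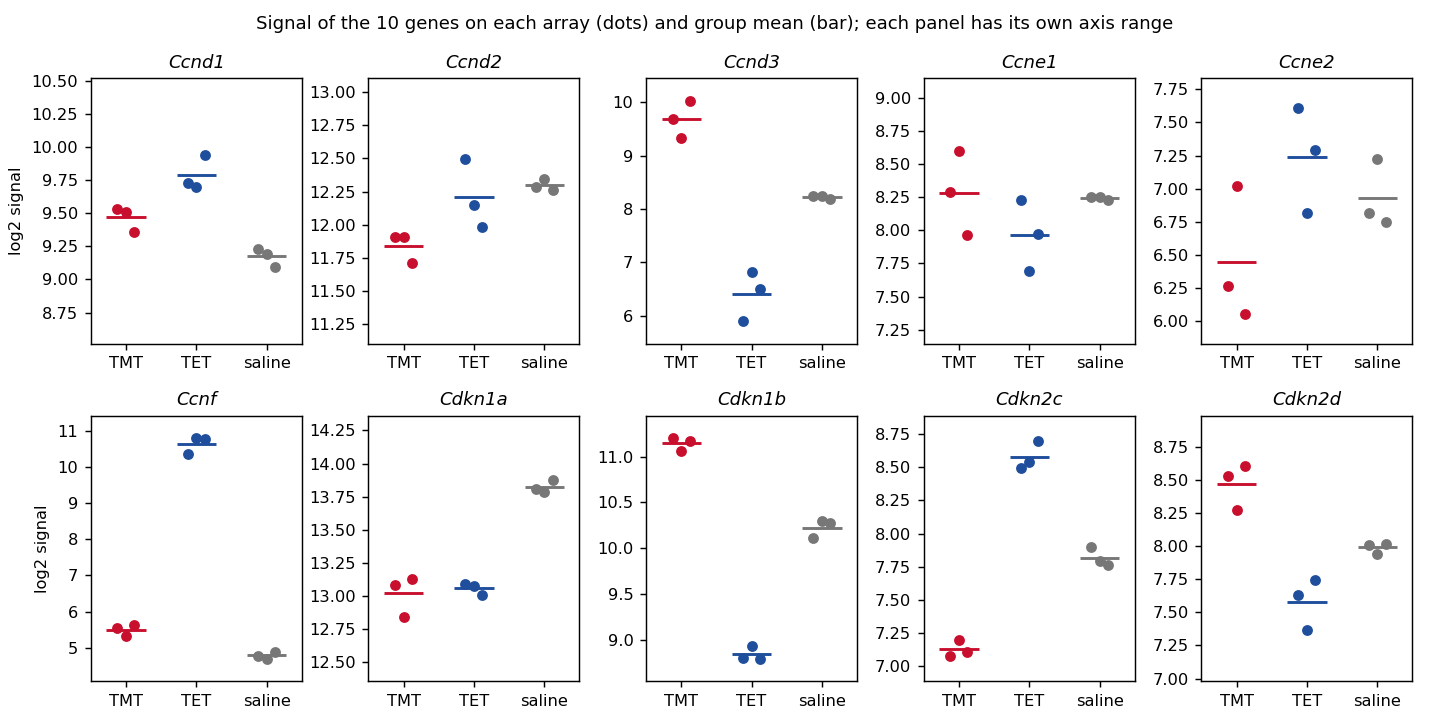
Log2 signal of each gene (vertical axis, own range per panel) on the 3 TMT, 3 TET and 3 saline arrays, as dots, with the group mean as a bar. The Ccnf panel has the widest span, with TET arrays between 10.35 and 10.80 and saline arrays between 4.70 and 4.90, and Ccnd3, Cdkn1b and Cdkn2d show TMT above saline and TET below it.

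**Figure D2:**
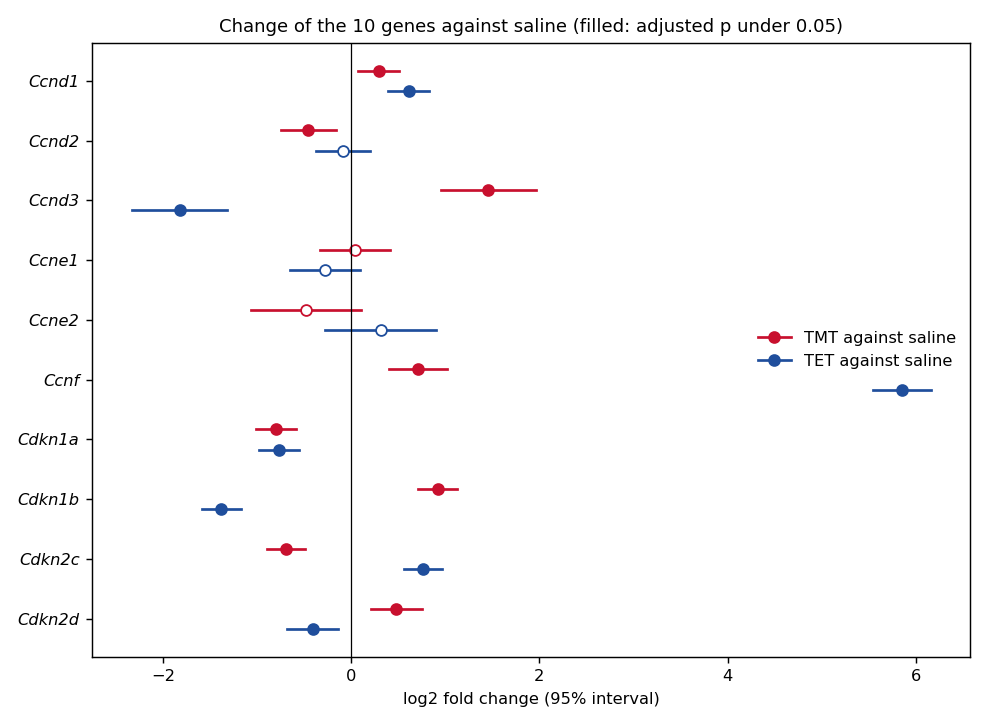
Log2 fold change against saline (horizontal axis) with its 95% interval for each of the 10 genes, TMT above TET within each row and filled where the adjusted p was under 0.05. Ccnf under TET stands alone at 5.85, and the other values lie between -1.82 and 1.46.

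Cyclin D1 and cyclin D2, the D-type cyclins with the smaller changes, moved in opposite directions under TMT. Ccnd1 (probe set 1448698_at) read 9.53, 9.51 and 9.36 on the TMT arrays, 9.72, 9.70 and 9.94 on the TET arrays and 9.23, 9.19 and 9.10 on the saline arrays. The 3 groups did not overlap, with TET highest and saline lowest. The log2 change was 0.29 (SE 0.10, 1.23-fold, adjusted p = 0.048) for TMT against saline, 0.61 (SE 0.10, 1.53-fold, adjusted p = 5.1e-04) for TET against saline and 0.32 (SE 0.10, adjusted p = 0.020) for TET against TMT. Its other 2 probe sets were higher by 0.26 and 0.49 under TMT and by 0.77 and 0.94 under TET, on the log2 scale. The rise under TMT lay at the threshold: leaving out TMT replicate 1 or 2, or saline replicate 1, 2 or 3, gave adjusted p-values of 0.082 to 0.165. The difference between TET and TMT was likewise no longer called without TMT replicate 3 (adjusted p = 0.078) or TET replicate 3 (adjusted p = 0.056).

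Ccnd2 (probe set 1455956_x_at) read 11.91, 11.91 and 11.71 under TMT, 12.50, 12.15 and 11.98 under TET and 12.29, 12.35 and 12.26 in saline. Every TMT array lay below every other array, while the TET arrays straddled those of saline. The log2 change was -0.45 (SE 0.13, 1.37-fold, adjusted p = 0.024) for TMT against saline, -0.09 (SE 0.13, adjusted p = 0.60) for TET against saline and 0.37 (SE 0.13, adjusted p = 0.035) for TET against TMT. That probe set, whose suffix marks probes able to bind related transcripts, gave the smallest TET difference of the 7 that name Ccnd2. All 7 were lower than saline under both compounds, by 0.45 to 1.16 under TMT and by 0.09 to 1.10 under TET on the log2 scale. Adjusted over the 34945 probe sets, 5 of the 7 were called lower under TET, and averaging the 7 per array gave a log2 change of -0.66 (limma, adjusted p = 3.2e-04). Between the organotins the 7 did not share a direction: TET lay above TMT in 4 of them and below in 3. The TMT fall on the brightest probe set was no longer called without saline replicate 1, 2 or 3 or TMT replicate 3 (adjusted p 0.059 to 0.090), and the TET against TMT difference without any 1 of the saline or TMT arrays or TET replicate 1 (adjusted p 0.051 to 0.120).

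Ccnd3, the third D-type cyclin, stood next to Ccnf in the distance between the TET and TMT means. It read 9.69, 9.32 and 10.03 under TMT, 5.89, 6.81 and 6.50 under TET and 8.25, 8.24 and 8.19 in saline (probe set 1415907_at). The groups were fully separate, TMT on top and TET at the bottom. Mean log2 signals were 9.68 ± 0.36 under TMT, 6.40 ± 0.47 under TET and 8.22 ± 0.03 in saline (SD, n = 3 each), so the organotin cultures also varied more among themselves than the saline cultures. The change was 1.46 (SE 0.23, 2.75-fold, adjusted p = 7.2e-04) for TMT against saline and -1.82 (SE 0.23, 3.54-fold lower, adjusted p = 9.7e-05) for TET against saline, on the log2 scale. TET lay 9.73-fold below TMT (log2 change -3.28, SE 0.23, adjusted p = 1.5e-06), the 14th lowest log2 change of the 18193 genes in that comparison. A second Ccnd3 probe set also rose with TMT (1.23) and fell with TET (-0.84), whereas the dimmest of the 3 gave 0.10 and 0.22 and was not called in either.

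The promoter table drawn from RefSeq (GRCm38.p6) holds 2 starts of Ccnd3. The 250 bases before the second, at chr17:47593217-47593466 on the plus strand, are shown because Ccnd3 moved in opposite directions with the 2 compounds, and capitals mark a CCAAT box and a heat shock element (GAANNTTC, either strand), a motif that was added after the values had been seen.
Ccnd3: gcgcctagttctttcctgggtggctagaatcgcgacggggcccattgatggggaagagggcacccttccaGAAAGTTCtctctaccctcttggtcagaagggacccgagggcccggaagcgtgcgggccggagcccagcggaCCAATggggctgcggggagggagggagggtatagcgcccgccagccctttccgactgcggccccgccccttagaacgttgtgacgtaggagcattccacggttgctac
Over the 32851 promoter windows of that length, 33.8% hold CCAAT on either strand and 6.69% hold GAANNTTC. The match stands 180 to 173 bases before the start, and the window of the first start holds neither motif but 1 match to TGTTTAC, a FOXO motif found in 3.17% of windows. Such matches describe letters only and show no binding.

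**Figure D3:**
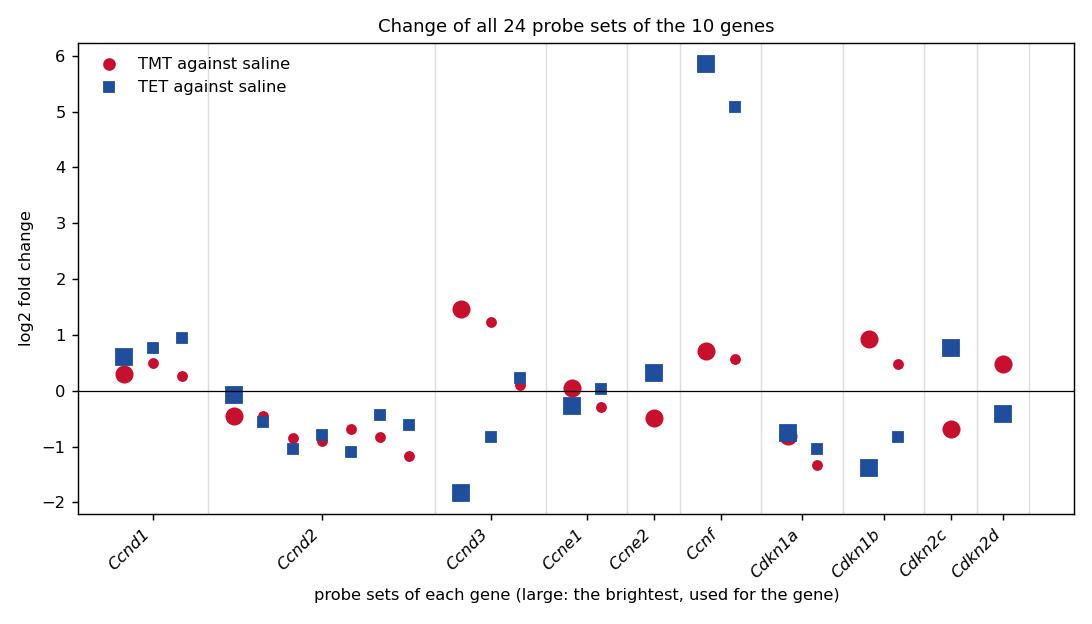
Log2 fold change against saline (vertical axis) of all 24 probe sets of the 10 genes (horizontal axis, grouped by gene; large symbols are the brightest probe set of each), circles for TMT and squares for TET. All 7 Ccnd2 probe sets lie below 0 under both compounds, both Ccnf probe sets stand above 5 under TET, and the dimmest Ccnd3 probe set stays near 0 (0.10 under TMT and 0.22 under TET).

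The E-type cyclins, which partner CDK2 at the entry to S phase, were not called against saline. Ccne1 (probe set 1441910_x_at) read 8.29, 8.60 and 7.96 under TMT, 8.23, 7.69 and 7.97 under TET and 8.25, 8.25 and 8.23 in saline. All 3 groups overlapped, and the organotin arrays spread widely around the tight saline values. The log2 change was 0.04 (95% interval -0.34 to 0.42, adjusted p = 0.91) for TMT against saline and -0.28 (-0.66 to 0.10, adjusted p = 0.19) for TET against saline, intervals that allow a change of either sign. TET against TMT gave -0.32 (SE 0.17, adjusted p = 0.14), which was called without TMT replicate 3 (-0.48, adjusted p = 0.037). The second Ccne1 probe set pointed the other way in each comparison (-0.30, 0.04 and 0.33), so no direction is given for this gene.

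Ccne2 has 1 probe set, 1422535_at, which read 6.26, 7.02 and 6.06 under TMT, 7.61, 6.82 and 7.30 under TET and 6.81, 7.23 and 6.75 in saline. TMT replicate 2 lay among the saline arrays and TET replicate 2 below the highest TMT array, so every pair of groups overlapped. On the log2 scale it changed by -0.48 (SE 0.26, adjusted p = 0.23) for TMT against saline and 0.31 (SE 0.26, adjusted p = 0.35) for TET against saline. Without TMT replicate 2 the TMT value was called (-0.77, adjusted p = 0.036). TET lay above TMT by 0.79 (SE 0.26, 1.73-fold, adjusted p = 0.029), a call that ended without TMT replicate 1 or 3 or TET replicate 1 or 3 (adjusted p 0.068 to 0.109).

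Cyclin F showed the largest change of the 10 genes. Ccnf (probe set 1422513_at) read 5.55, 5.32 and 5.63 under TMT, 10.35, 10.80 and 10.78 under TET and 4.79, 4.70 and 4.90 in saline. The 3 groups did not overlap, and the TET arrays stood more than 4 log2 units above every other array. The log2 change of TET against saline was 5.85 (SE 0.14, 57.7-fold, adjusted p = 2.2e-09), the third largest rise of the 18193 genes. TET also lay 35.3-fold above TMT (log2 change 5.14, SE 0.14, adjusted p = 8.1e-09), the 12th largest rise there. Under TMT, Ccnf was 1.63-fold above saline (log2 change 0.71, SE 0.14, adjusted p = 0.0030). The second Ccnf probe set gave 0.58 under TMT and 5.08 under TET. The saline mean of 4.79 lay just above the dimmest 20% of genes, which ended at 4.71. No value in the table marks array background, so the fold is measured against a level near the low end of the scale.

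The 250 bases before the Ccnf start, at chr17:24251410-24251659 on the minus strand, are shown because this gene had the widest range of the set. Capitals mark CCAAT boxes and the CHR motif (TTTGAA), a pair of elements known from promoters of genes expressed in G2 and M phase.
Ccnf: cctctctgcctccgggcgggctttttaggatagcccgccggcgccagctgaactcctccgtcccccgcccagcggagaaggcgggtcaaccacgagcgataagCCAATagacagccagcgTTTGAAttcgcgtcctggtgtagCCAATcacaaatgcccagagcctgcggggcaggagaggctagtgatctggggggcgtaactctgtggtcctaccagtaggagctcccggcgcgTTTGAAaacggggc
CCAAT stands 147 to 143 and 107 to 103 bases before the start, and TTTGAA 130 to 125 and 14 to 9 bases before it. Of all 32851 windows, 16.0% hold TTTGAA on either strand, and of the 7 members with a promoter entry Ccnf alone did. None of the 10 windows of those members matched E2F (TTTGGCGC, TTTCCCGC, TTTGCCGC or TTTCGCGC, in 1.86% of all windows), CRE (TGACGTCA, 1.55%), E-box (CACGTG, 6.02%), AP-1 (TGANTCA, 6.75%) or TATA box (TATAAA, 12.4%) letters, which says only that these letters are not in these windows.

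Of the CIP/KIP inhibitors, Cdkn1a fell with both compounds and Cdkn1b went up with TMT and down with TET. Cdkn1a (probe set 1424638_at), which encodes p21, a target of p53, read 13.09, 12.85 and 13.13 under TMT, 13.09, 13.08 and 13.01 under TET and 13.81, 13.78 and 13.88 in saline. Every organotin array lay below every saline array, while the TET and TMT arrays overlapped. The log2 change was -0.80 (SE 0.10, 1.74-fold lower, adjusted p = 1.2e-04) for TMT against saline and -0.76 (SE 0.10, 1.70-fold lower, adjusted p = 1.0e-04) for TET against saline. TET differed from TMT by 0.04 (95% interval -0.17 to 0.25, adjusted p = 0.74). The second probe set gave larger falls, -1.34 under TMT and -1.05 under TET.

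Cdkn1b (probe set 1434045_at), which encodes p27, an inhibitor that is abundant in resting cells, read 11.20, 11.06 and 11.17 under TMT, 8.81, 8.94 and 8.80 under TET and 10.11, 10.30 and 10.28 in saline. The groups were separate, with gaps of over 0.7 log2 units between neighbours and SDs of 0.07 to 0.10 within them. TMT lay above saline by 0.92 (SE 0.09, 1.89-fold, adjusted p = 3.6e-05) and TET below it, with a log2 change of -1.38 (SE 0.09, 2.60-fold lower, adjusted p = 1.2e-06). TET was 4.92-fold below TMT (log2 change -2.30, SE 0.09, adjusted p = 4.8e-08). The second probe set moved the same ways, by 0.48 under TMT (not called, adjusted p = 0.073 over probe sets) and -0.83 under TET.

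The window before the Cdkn1b start, chr6:134920151-134920400 on the plus strand, is shown for the same reason as that of Ccnd3, and its 2 CCAAT boxes are in capitals.
Cdkn1b: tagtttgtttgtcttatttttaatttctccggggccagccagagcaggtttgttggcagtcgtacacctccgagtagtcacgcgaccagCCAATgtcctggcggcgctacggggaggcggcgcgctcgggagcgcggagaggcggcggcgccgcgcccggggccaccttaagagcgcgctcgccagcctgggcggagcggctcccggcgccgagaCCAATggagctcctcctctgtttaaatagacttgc
These boxes stand 161 to 157 and 35 to 31 bases before the start. The Cdkn2d window holds 1 CCAAT box on the other strand, and those of Cdkn1a, Cdkn2c and Ccne1 hold none of the motifs searched.

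The INK4 inhibitors moved against each other. Cdkn2c (probe set 1416868_at), which encodes p18, read 7.08, 7.20 and 7.11 under TMT, 8.50, 8.54 and 8.70 under TET and 7.90, 7.79 and 7.76 in saline. All groups were separate, with TET on top. Log2 changes were -0.69 (SE 0.09, 1.61-fold lower, adjusted p = 2.2e-04) for TMT against saline, 0.76 (SE 0.09, 1.69-fold, adjusted p = 7.0e-05) for TET against saline and 1.45 (SE 0.09, 2.73-fold, adjusted p = 7.5e-07) for TET against TMT.

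Cdkn2d (probe set 1416253_at), which encodes the INK4 protein p19, ran the opposite way, with 8.53, 8.27 and 8.60 under TMT, 7.63, 7.36 and 7.74 under TET and 8.01, 7.94 and 8.02 in saline. Here TMT was on top and TET at the bottom, again without overlap. Its log2 change was 0.48 (SE 0.12, 1.39-fold, adjusted p = 0.014) for TMT against saline, -0.41 (SE 0.12, 1.33-fold lower, adjusted p = 0.018) for TET against saline and -0.89 (SE 0.12, 1.85-fold lower, adjusted p = 1.7e-04) for TET against TMT. Both calls against saline were narrow. That of TMT ended without saline replicate 2, TMT replicate 1 or TMT replicate 3 (adjusted p 0.053 to 0.057), and that of TET without saline replicate 1, saline replicate 3 or TET replicate 2 (adjusted p 0.053 to 0.055) and after a second quantile normalization (-0.30, adjusted p = 0.097).

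By the spread between group means, the widest members were Ccnf, Ccnd3, Cdkn1b and Cdkn2c. Among genes at or above the median brightness, those whose deviations from their own mean over the 9 arrays lay closest were Mospd4 and Noxred1 for Ccnf (mean absolute difference 0.28 and 0.30), Slc35c1 and Peak1 for Ccnd3 (0.18 and 0.26), Slc25a37 and Pygo2 for Cdkn1b (0.08 and 0.09) and Mcfd2 and Snhg8 for Cdkn2c (0.07 and 0.08). Mospd4 averaged 6.29 under TMT, 11.83 under TET and 6.32 in saline, so it shared the high TET level of Ccnf but not its rise under TMT. Noxred1 averaged 6.79 under TMT, 11.61 under TET and 6.38 in saline. Both genes passed the brightness cut of 6.82 only through their TET arrays, so their likeness to Ccnf is a description. The next genes of the pathway were taken from lists by function and were likewise drawn up with earlier results known. Their counts of called genes are read beside the shares over all genes. These were 14.3% risen and 13.4% fallen under TMT, and 27.4% risen and 23.4% fallen under TET. For TET against TMT they were 28.1% higher and 23.7% lower. List genes that are not members were read from their brightest probe set alone, with no check against their other probe sets. For Cdk4 and Rrm2 that probe set ends in _x_at, the suffix met above for Ccnd2. Those of Ccnh, E2f5, Chek1, Sesn1 and Ets1 end in _s_at, a suffix left out together with _x_at in an alternative fit.

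The kinases that the G1 cyclins activate did not move as a group. Cdk6, a partner of the D-type cyclins, fell with both compounds, to a log2 signal of 10.13 under TMT and 9.91 under TET, against 11.80 in saline (changes of -1.67 and -1.89, SE 0.10, adjusted p = 1.7e-06 and 3.3e-07). Cdk4, the other partner, rose with TET (1.15, SE 0.14, adjusted p = 8.9e-05) and was not called with TMT (0.08, adjusted p = 0.76), and TET lay above TMT by 1.07 (adjusted p = 1.3e-04). Cdk2, the partner of cyclin E, was higher by 0.63 under TMT (SE 0.16, adjusted p = 0.015) and lower under TET, at -0.86 (SE 0.16, adjusted p = 0.0016). Ccnh, the cyclin of the CDK-activating kinase, rose with both (0.71 and 1.07). Cdc25a, a phosphatase that activates CDK2, fell under TET (-0.33, SE 0.12, adjusted p = 0.048) and was not called under TMT (0.23). Cdk7 also fell under TET (-0.31, SE 0.08, adjusted p = 0.0073) and was not called under TMT (-0.03). Of the 7 genes of the cyclin E and CDK2 list, members included, 2 rose and 0 fell under TMT (median 0.04). Under TET 1 rose and 3 fell (median -0.28). Without saline replicate 3, only 1 gene of this list was called under TMT.

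Of 8 CDK inhibitor genes, members included, 2 rose and 4 fell under TMT (median -0.70), where 14.3% of all genes rose and 13.4% fell. Under TET 3 rose and 4 fell (median -0.21), where 27.4% of all genes rose and 23.4% fell. Among the 4 that are not members, Cdkn1c (p57, of the CIP/KIP class) fell with TMT (-1.21, SE 0.12, adjusted p = 2.6e-05) and rose with TET (0.63, SE 0.12, adjusted p = 0.0013). Cdkn2b, which encodes the INK4 inhibitor p15, rose with TET (0.98, SE 0.27, adjusted p = 0.013), with -0.72 under TMT not called (adjusted p = 0.081). TET lay above TMT for both, by 1.84 and 1.69. Cdkn3, a phosphatase that acts on CDK2, fell with both compounds (-0.79 under TMT and -0.89 under TET, SE 0.24, adjusted p = 0.034 and 0.012). Cdkn2a averaged 4.35 under TMT, 4.48 under TET and 4.49 in saline, within the signal range of the dimmest 20% of genes, and was not called.

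At the next step of the pathway, the retinoblastoma proteins and E2F factors, calls under TET were all falls. Of 13 genes, 0 rose and 7 fell under TET (median log2 change -0.61, beside 0.09 over all genes), and 2 rose and 2 fell under TMT (median -0.19, beside 0.01). Rbl2, which encodes p130, the pocket protein of resting cells, averaged 6.03 under TET against 7.95 in saline (log2 change -1.93, SE 0.09, adjusted p = 9.8e-08). Rb1, the retinoblastoma gene, averaged 7.05 under TET against 8.59 in saline (log2 change -1.54, SE 0.15, adjusted p = 1.5e-05). Tfdp1, the dimerization partner of E2F factors, changed by -0.86 (SE 0.13, adjusted p = 3.2e-04). Under TMT these 3 genes were not called (0.17 for Rbl2, -0.19 for Rb1 and -0.25 for Tfdp1). E2f1 fell under TET (-0.77, SE 0.15, adjusted p = 0.0015) and was not called under TMT (0.39, adjusted p = 0.075). Its TET level lay below that of TMT (-1.16, SE 0.15, adjusted p = 9.3e-05). The 4 genes called under TMT were E2f8 (-1.03), E2f5 (-0.79) and E2f6 (0.72), which have repressor roles, and the activator E2f3 (0.55, SE 0.10, adjusted p = 0.0019), which fell under TET (-0.61, SE 0.10, adjusted p = 5.9e-04).

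**Figure D4:**
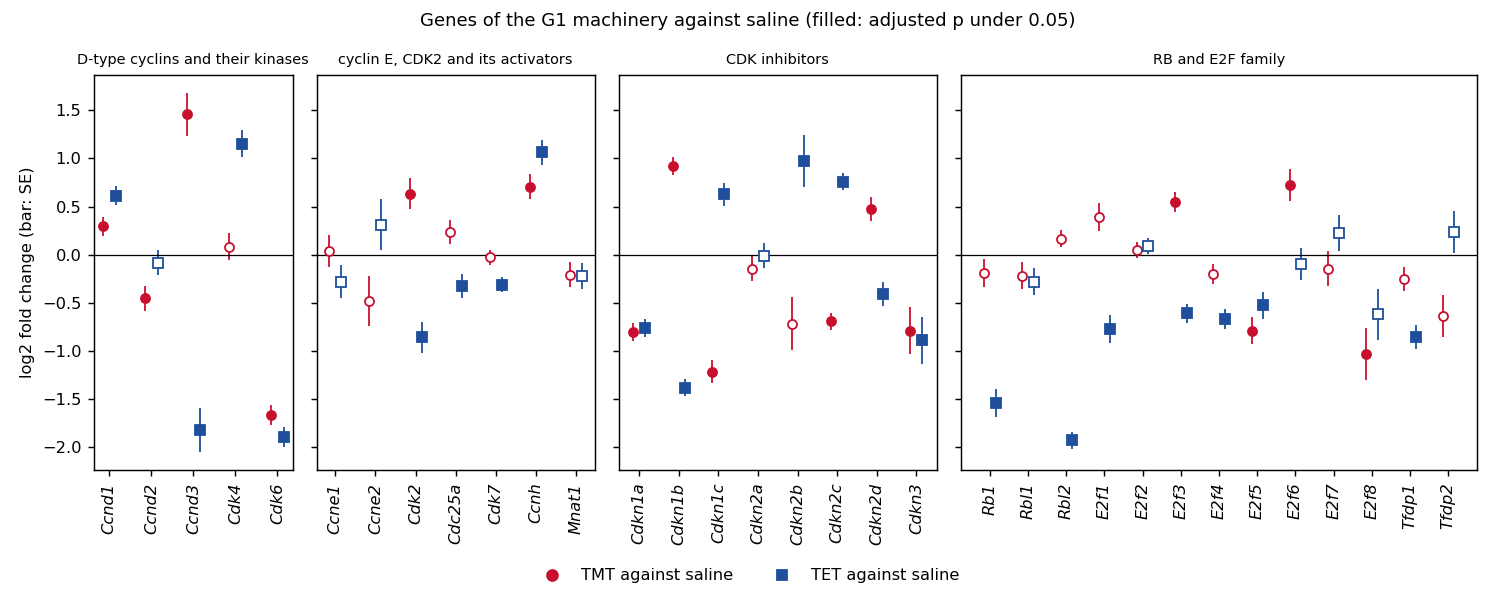
Log2 fold change against saline (vertical axis, bars are 1 SE) of the genes of 4 lists of the G1 machinery, circles for TMT and squares for TET, filled where the adjusted p was under 0.05. Cdk6 lies below -1.6 under both compounds, and in the panel of the RB and E2F family the 7 filled TET squares all lie below 0, down to -1.93 for Rbl2.

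Downstream of E2F, 3 of 28 S phase genes rose and 10 fell under TMT (median -0.27), and 6 rose and 5 fell under TET (median 0.04). Cdt1, which loads the replicative helicase, rose with both compounds, by 1.78 under TMT and 2.38 under TET. Rrm2, the ribonucleotide reductase subunit, averaged 5.90 under TMT, 7.65 under TET and 8.92 in saline, log2 changes of -3.03 and -1.27. The helicase loader Cdc6 rose with TET (1.91, SE 0.25, adjusted p = 1.3e-04), as did the checkpoint kinase Chek1 (2.31, SE 0.23, adjusted p = 2.3e-05), and under TMT neither was called (-0.19 and -0.30). Pola1, the catalytic subunit of DNA polymerase alpha, fell with TMT (-2.20, SE 0.20, adjusted p = 1.6e-05) and was not called with TET (0.05).

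Most genes of the G2 and M phase list, which holds markers of dividing cells, fell under TMT. None of its 17 genes rose, 12 fell, and the median log2 change was -0.63, beside 0.01 over all genes. Top2a, a topoisomerase of dividing cells, averaged 5.90 under TMT against 8.22 in saline (log2 change -2.32), Nusap1, a spindle protein, averaged 6.08 against 8.31 (-2.23) and Ccnb2, cyclin B2, 5.74 against 7.63 (-1.89). Under TET 4 of the 17 rose and 5 fell (median -0.02). Bub1, a spindle checkpoint kinase, fell with both compounds (-1.69 under TMT and -1.40 under TET), as did Top2a and Nusap1 (-0.66 and -1.08 under TET). Cenpa, the centromeric histone, fell with TMT (-1.43) and rose with TET (1.10), and Ccnb2 was not called under TET (-0.15). Set against TMT, 12 of the 17 were called higher under TET and 0 lower (median 0.61, beside 0.11 over all genes).

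Proteins known to be degraded through cyclin F, mostly from work in human cells, were listed as 11 genes. In these transcripts 2 rose and 6 fell under TET (median -0.28), where Ccnf rose 57.7-fold, and 3 rose and 2 fell under TMT (median 0.17). Under TET Rbl2, Rrm2 and Nusap1 fell and Cdc6 rose, as given above, and Rrm2 and Nusap1 also fell under TMT. Ccp110, a centriole cap protein, rose with both compounds (1.14 under TMT and 0.81 under TET, SE 0.27, adjusted p = 0.0084 and 0.028). Its saline mean of 4.66 lay within the dimmest 20% of genes, and its TET arrays overlapped those of saline. The arrays measure RNA, so they hold no value on the stability of any of these proteins.

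Among 17 genes of the ubiquitin ligases that turn over G1 cyclins and inhibitors, 2 rose and 1 fell under TMT (median -0.10). Under TET 4 rose and 4 fell (median -0.05), near the shares of all genes, 27.4% and 23.4%. Skp2, the F-box protein that recognizes p27, was higher under both compounds (0.94 under TMT and 1.03 under TET, SE 0.19, adjusted p = 0.0043 and 0.0014), and Cks1b, its cofactor for p27, was lower under both (-0.90 and -1.13, SE 0.13). Fbxo31, an F-box protein for cyclin D1, rose with TMT (0.43, SE 0.10, adjusted p = 0.0098) and was not called with TET (-0.10). Under TET the paralogous scaffolds Cul4a and Cul4b moved apart, by -1.05 (SE 0.12) and 1.07 (SE 0.14), while neither was called under TMT (0.20 and 0.36). Fbxw7, which recognizes cyclin E, rose with TET (0.84, SE 0.11, adjusted p = 1.2e-04), was not called with TMT (-0.23) and lay higher under TET than under TMT (1.07, SE 0.11, adjusted p = 2.1e-05). The TMT count depended on the spread shared by the 3 groups. Without TET replicate 1 or without TET replicate 3, which enter only through that spread, 6 genes were called under TMT in place of 3. Leaving out 1 TMT or saline array gave 2 to 4.

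Cdkn1a is a p53 target, and genes of that list moved either way. Of 24 measured p53 target genes, Cdkn1a among them, 10 rose and 7 fell under TMT (median 0.10), and 12 rose and 7 fell under TET (median 0.21). Without saline replicate 2, saline replicate 3 or TMT replicate 1, 10 genes of the list were called under TMT in place of 17, and 11 without TMT replicate 2 or TMT replicate 3. Pmaip1 (NOXA), a promoter of apoptosis, rose by 1.42 under TMT and 3.38 under TET, and Gadd45a, a growth arrest gene, by 1.56 and 3.22. Sesn1, a stress-induced regulator of growth signalling, rose by 2.16 under TMT and 1.03 under TET (SE 0.29, adjusted p = 2.6e-04 and 0.013). Trp53inp1, a p53 cofactor, rose by 0.48 under TMT and 2.22 under TET (SE 0.14, adjusted p = 0.031 and 9.8e-07). Plk2 fell under TMT (-0.48, SE 0.12, adjusted p = 0.010) and rose under TET (1.30, SE 0.12, adjusted p = 9.5e-06). Pmaip1, Gadd45a, Sesn1 and Trp53inp1 rose with both compounds, but 7 genes of the list fell under each compound. Among those, Ei24 changed by -0.31 under TMT and -1.64 under TET, and Aen by -0.87 and -1.01.

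Of the 12 other cyclins listed, 0 rose and 2 fell under TMT (Ccng2 and Ccnl1), and 2 rose and 5 fell under TET. Ccnj changed by -2.46 (SE 0.19, adjusted p = 3.9e-06), Ccnc, the cyclin of the Mediator kinase module, by -1.86 (SE 0.22, adjusted p = 7.9e-05) and Ccng2, a cyclin known to rise in arrested cells, by -1.30 (SE 0.13, adjusted p = 1.8e-05) under TET. Ccng2 also fell with TMT (-0.83, SE 0.13, adjusted p = 6.5e-04), where Ccnj (-0.28) and Ccnc (-0.38) were not called.

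Upstream, the 20 genes that carry growth signals to G1 in macrophages held 9 that rose and 4 that fell under TMT (median 0.31), and 11 that rose and 3 that fell under TET (median 0.63). Csf1, the growth factor itself, averaged 9.65 under TMT, 11.78 under TET and 11.93 in saline, a fall of 4.85-fold with TMT (log2 change -2.28, SE 0.10, adjusted p = 2.1e-07) and no call with TET (-0.15, adjusted p = 0.21). Dusp6, a phosphatase that limits ERK, rose with TMT (2.72) and was not called with TET (-0.60, adjusted p = 0.086), while the ERK-responsive factor Ets1 rose with both (2.09 under TMT and 1.59 under TET). The AP-1 subunit Jun rose by 0.43 under TMT and 2.01 under TET, and Spry2, an inhibitor of receptor signalling, by 0.55 under TMT and 2.76 under TET. Fosl1, another AP-1 subunit, rose with TET (2.97), its TMT value of 0.47 not being called (adjusted p = 0.074). Myc, which drives D-type cyclin genes, was 5.02-fold higher under TET than under TMT (log2 change 2.33, SE 0.18, adjusted p = 2.9e-06), the compounds standing on either side of saline, with 7.33 under TMT, 9.66 under TET and 8.71 in saline.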

How the data were processed

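RNA of 9 cultures of LPS-primed macrophages, 3 each with TMT, TET or saline, was read on Affymetrix arrays after amplification of 50 ng of total RNA, per the labels' protocols. The deposited values are log2 signals that the authors made with RMA and affy, per the submitters' processing notes. The sources used here give no versions, and the base of the logarithm was taken from the values (2.05 to 14.8). The table was used as deposited, and no value in it marks background or saturation. Of 45037 probe sets, 34945 name 1 gene in the platform annotation, 932 several and 9160 none. Only the first kind was used, and for each of the 18193 genes so named the probe set with the highest mean over the arrays was kept. The gene identifiers of 204 probe sets were missing from the RefSeq annotation of GRCm38.p6, from which came names, neighbouring genes and promoter windows. Of the 10 members, 7 have a promoter entry (10 windows in all), and motifs were searched on both strands of the 250 bases before the start.

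With limma 3.58.1 in R 4.3.3, the 9 arrays were fitted together, each group with its own mean (6 residual and 3.99 prior degrees of freedom). In each comparison the Benjamini-Hochberg adjustment of two-sided p-values ran over all 18193 genes, and genes were called under 0.05. The SE is the moderated standard error, and intervals are 95% intervals from the same model. The fit was tested on simulated data. The members, lists, rules for naming and tests were chosen with earlier results of these data known. All 10 members are named. From each list up to 3 called genes that are not members were named per comparison, those with the largest log2 change whose arrays did not overlap, and the 2 most alike genes for 4 members. Further values are given for genes so named, and Cdkn2a, E2f3, Ei24 and Aen were added after their values were seen. Some genes of the lists and markers were not analysed here. Alternatives were a replicate block, leaving out each array, fitting only the 6 arrays compared, bright genes alone (9-array mean at or above 6.82), a second quantile normalization, centring on the median, the mean over probe sets, leaving out probe sets ending in _s_at, _x_at or _a_at, array weights, trended robust moderation, a 1.5-fold minimum and each member's other probe sets.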

Additional observations from a re-analysis of the deposited data

How the results depend on the processing

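Ccnf, Cdkn2c and Cdkn1a kept their direction and call against saline under every alternative run, as did Ccnd1 under TET, and Ccnd3 and Cdkn1b did so except in single probe sets. Ccnf stayed among bright genes only through its TET arrays, so that setting bears nothing on it. Leaving out 1 array gave 5 to 8 called members under TMT against saline, where all arrays gave 8. A minimum of 1.5-fold left 5, and the fit of only the 6 arrays compared left 5 of 8 for TET against TMT. Genes called under TMT numbered 5049, but 8756 with array weights and 3180 at 1.5-fold. Those under TET numbered 9247, but 6066 among bright genes alone and 5383 at 1.5-fold, and those between TET and TMT 9425, but 6270 and 5540. Fewer genes were tested among bright genes, and for the other settings the cause was not tested.

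Directions turned only in values near 0 or in other probe sets. Ccne1 under TMT ranged from -0.12 to 0.20 with 1 array left out, and gave -0.13 as the mean over probe sets and -0.30 from its second probe set, which also stands for the gene when suffixed probe sets are left out. That probe set gave 0.038 under TET and 0.33 for TET against TMT, where the mean gave 0.0070. Ccnd2 under TET ranged from -0.23 to 0.028 with 1 array left out, and for TET against TMT it gave -0.11 without suffixed probe sets and -0.11, -0.21 and -0.41 in 3 probe sets. The dimmest Ccnd3 probe set gave 0.22 under TET and 0.12 for TET against TMT. Cdkn1a for TET against TMT ranged from -0.048 to 0.094 with 1 array left out and gave -0.019 with array weights.

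Deviations from group means correlated at -0.15 to 0.31 between same-numbered arrays and at -0.30 to 0.26 between others, ranges that overlap. Between TMT and saline the same-numbered arrays gave 0.16, 0.31 and 0.02. With 3 arrays per group this check cannot tell whether the replicate numbers pair the samples. A replicate block gave 4859, 8956 and 9119 called genes in the 3 comparisons and 7, 7 and 8 called members, the lost call being Ccnd1 under TMT (adjusted p = 0.089). A second quantile normalization moved the median of all genes by -0.12 for TET against saline and by -0.13 for TET against TMT, and 46.0% of the calls under TET were then rises, against 53.9% before. No member changed direction under it. The number of arrays and the unmarked background limit what dim genes such as Ccnf in saline can show.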

Other observations

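Genes next to Ccnf were looked at after its values had been seen. Ccnf lies on the minus strand, and the 3 measured genes beyond its 3′ end, in order of distance Tedc2, Ntn3 and Tbc1d24, lie on the same strand in the GRCm38.p6 annotation. Tedc2 averaged 7.06 under TMT, 9.04 under TET and 5.86 in saline, a log2 change of 1.20 (SE 0.13, limma, adjusted p = 6.2e-05) with TMT and 3.18 (SE 0.13, limma, adjusted p = 4.8e-08) with TET. Ntn3 rose with TET (1.74, SE 0.14, limma, adjusted p = 5.0e-06), its TMT value being 0.19 (adjusted p = 0.40), and Tbc1d24 rose with TMT (2.50, SE 0.49) and with TET (1.89, SE 0.49). On the other side, Abca3 rose with TMT (0.54) and fell with TET (-0.33), and Rnps1 rose with TET (0.38) and was not called with TMT (0.09). Whether the RNA of Ccnf and of these neighbours is connected was not tested.

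The next neighbours of Ccnd3 and Cdkn1b did not share their pattern of a rise with TMT and a fall with TET. Beside Ccnd3, Taf8 was not called with either compound (-0.11 under TMT and 0.22 under TET), and Bysl fell with both (-0.48 and -0.87). Med20, 3 genes away from Ccnd3, rose with TMT (1.07, SE 0.15, limma, adjusted p = 3.6e-04) and was not called with TET (0.19). Its TET level lay below that of TMT (-0.88, SE 0.15, limma, adjusted p = 7.4e-04), as for Ccnd3. On the other side, AI661453 and 1700001C19Rik rose with TET (0.55 and 0.46) and were not called with TMT (-0.23 and 0.24). Beside Cdkn1b, Gpr19 fell with TMT (-0.52) and was not called with TET (0.16), and Apold1 was not called with either (-0.26 and 0.05). Crebl2, 2 genes away from Cdkn1b, fell with both (-1.83 and -2.18).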
